A study of Mus musculus with 28 samples.

Results

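The transcripts described here are 10 genes that hypoxia-inducible factors (HIF) are known to switch on: Ankrd37, Bnip3, Bnip3l, Kdm3a, P4ha1, Ero1l, Egln1, Egln3, Vegfa and Ddit4. They were taken by gene symbol from a table of 30608 mouse genes. All 10 were in the table, and 9 of them were abundant enough to test. The cells were CTLL2, a line of cytotoxic T lymphocytes that needs interleukin-2 to grow and that the labels give as mouse strain C57BL/6. The study asked how exosomes, small vesicles released by B16F0 mouse melanoma cells, change the transcriptome of these T cells. All cells had grown in complete medium and were then given fresh complete medium. The exosome-treated cells received B16F0 exosomes in phosphate-buffered saline at 0.2 mg/ml with that medium and were sampled at 0.5, 2, 4 and 8 h, with 3 libraries at each time. The untreated cells received no exosomes and were sampled at 0 h, with 4 libraries, and at 0.5, 2, 4 and 8 h, with 3 libraries each. The design text calls the replicates biological and says nothing of separate cultures, so the p-values measure the spread between these libraries. The samples analysed here include no vesicles from other cells, no saline alone and no cells kept in their old medium, so a change since 0 h cannot be told apart from time in culture.

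HIF is a pair of proteins, an alpha subunit whose amount oxygen controls and a stable partner, Arnt. In oxygen the prolyl hydroxylases, Egln1 among them, mark the alpha subunit for the Vhl ubiquitin ligase, and in low oxygen it persists and binds short ACGTG or GCGTG elements near its targets. In activated T cells HIF-1 is also raised by interleukin-2 and antigen receptor signals and is known for driving glucose uptake and glycolysis. The targets cover mitochondrial clearance (Bnip3, Bnip3l), collagen hydroxylation and protein folding (P4ha1, Ero1l), histone demethylation (Kdm3a), growth control (Ddit4), vessel growth (Vegfa) and feedback on HIF itself (Egln1, Egln3).

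The promoters are shown because HIF is known to act through short elements of this kind, and because these 4 genes stand for the early and the late time courses described below. In RefSeq (GRCm38.p6), 9 of the 10 members had a window of 250 bases before to 50 after a transcription start, 12 windows in all. Ankrd37 (chr8:45999801-46000100), Ddit4 (chr10:59951721-59952020), Bnip3 (chr7:138909457-138909756) and Ero1l (chr14:45318523-45318822), all on the minus strand, are printed 5′ to 3′ on the strand of the gene. Capitals mark ACGTG or GCGTG, read on either strand, and overlapping matches run together.
Ankrd37: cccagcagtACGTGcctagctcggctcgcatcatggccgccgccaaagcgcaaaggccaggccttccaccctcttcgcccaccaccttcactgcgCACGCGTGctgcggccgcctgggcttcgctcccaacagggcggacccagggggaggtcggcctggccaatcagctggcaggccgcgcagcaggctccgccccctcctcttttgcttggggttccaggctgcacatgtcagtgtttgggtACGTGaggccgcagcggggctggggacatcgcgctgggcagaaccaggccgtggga
Ddit4: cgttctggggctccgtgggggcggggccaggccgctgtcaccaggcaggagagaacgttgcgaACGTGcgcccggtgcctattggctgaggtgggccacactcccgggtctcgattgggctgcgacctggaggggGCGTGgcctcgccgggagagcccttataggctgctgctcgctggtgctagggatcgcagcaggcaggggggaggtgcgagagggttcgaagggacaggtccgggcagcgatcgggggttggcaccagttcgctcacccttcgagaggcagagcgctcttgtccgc
Bnip3: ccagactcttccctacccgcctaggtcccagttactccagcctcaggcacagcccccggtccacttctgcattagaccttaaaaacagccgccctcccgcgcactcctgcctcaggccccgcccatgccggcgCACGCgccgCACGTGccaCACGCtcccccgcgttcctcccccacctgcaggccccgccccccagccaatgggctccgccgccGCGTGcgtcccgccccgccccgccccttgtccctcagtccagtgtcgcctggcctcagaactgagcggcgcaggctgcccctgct
Ero1l: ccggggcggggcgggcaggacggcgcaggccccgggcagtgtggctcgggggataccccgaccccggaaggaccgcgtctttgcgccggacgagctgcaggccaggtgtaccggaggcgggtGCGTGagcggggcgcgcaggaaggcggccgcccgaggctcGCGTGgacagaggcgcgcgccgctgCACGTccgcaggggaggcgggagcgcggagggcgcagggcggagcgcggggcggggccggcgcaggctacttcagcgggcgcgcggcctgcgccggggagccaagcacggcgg
Ankrd37 held 4 matches in 3 separate runs, Ddit4 held 2 matches, Bnip3 held 5 matches in 4 runs, and Ero1l held 3. Each of these 9 genes, Egln3 among them, had a match in at least 1 window, and 9 of their 12 windows (75%) had one, against 43.8% of all 32851 windows of this length and 60.7% of the 12318 windows of genes tested here. A 5-base match is common in such windows and is a description of the sequence, not a binding site.

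Most HIF targets were lower at 2 to 8 h after the medium change than at 0 h, and no difference between exosome-treated and untreated cells was detected for them. In exosome-treated cells 1 of the 9 members tested was lower at 0.5 h than at 0 h, 5 were lower at 2 h, 8 at 4 h and 6 at 8 h, where 0.054%, 1.11%, 2.12% and 1.16% of all genes tested were called lower. In untreated cells the counts at these times were 1, 6, 8 and 7, where 0.0202%, 1%, 0.971% and 15.8% of all genes were called lower. The members were chosen with earlier results of these data known, so these shares only describe them. No member was called higher than at 0 h at any time. At 0.5 h the fold change since 0 h was above 1 for 7 of the 9 in each treatment, none of them called. In untreated cells Ankrd37 was at 17.5% of its 0 h level at 2 h, Bnip3 at 41.1% and Ero1l at 48.2% at 4 h, from fold changes with a batch term. With exosomes these levels were 21.6%, 40.0% and 44.4%. With all libraries weighted equally, none of the 9 was called different between exosome-treated and untreated cells at any of the 4 times. Some passed at 8 h with libraries weighted by estimated quality, as given below. In RNA of whole cultures, less transcript per cell and fewer cells that carry it cannot be told apart.

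The values, called normalized counts here, are reads after the authors' division by a size factor for each library, and depth was 6072984 to 24085812 reads per library. A sample description gives each library a batch. Batch 1 has 1 library of each of the 9 groups and batch 2 the other 19. The batch 1 library is replicate 2 in exosome 2 h, untreated 4 h and exosome 4 h cells and replicate 1 elsewhere. In 8 libraries the skeletal muscle transcript Acta1 was at 75.2 to 415 normalized counts, against 0 to 4.71 in the other 20. Genes at 0 were few in 2 libraries, 22% of the table in exosome 8 h replicate 3 and 15.7% in untreated 4 h replicate 1, against 27.8% to 39.9% elsewhere. Calls of members lost without these libraries are given beside the results below. Without the 8 libraries with Acta1, 1 library remains in exosome 0.5 h, exosome 4 h and untreated 8 h cells. For those groups the sizes of changes alone are then given. Calls of the other named genes are given with all 28 libraries only. The 13 T-cell markers were present in every library, at a summed 237547 to 550747 normalized counts, of which Gzma held 112686 to 385369. Their levels differed widely, and Cd8a was at 46.8 to 162.

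At 0 h the order of levels per kilobase of exon in untreated cells (mean ± SD, n = 4) began with Ddit4 at 1989.7 ± 734 normalized counts per kilobase, Ero1l at 1501 ± 895 and Bnip3 at 1152 ± 382. Ankrd37 (811 ± 514), Egln1 (747 ± 42.4), P4ha1 (677 ± 184), Kdm3a (628 ± 188) and Bnip3l (557 ± 84.2) followed with ranges that overlapped those of their neighbours. Vegfa was last of the 9 at 149 ± 5.34, below the lowest library of every other tested member. Egln3, a prolyl hydroxylase and HIF target in many cells (ENSMUSG00000035105.5, chromosome 12 from 54178981 to 54203860), was at 0 in all 4 libraries. Over the 28 libraries Egln3 had 16 reads, 11 in 6 of the 12 exosome libraries and 5 in 5 of the 16 untreated ones, with at most 4 reads in a library. A gene at 0 could lie at up to 3 reads, or 1.88 to 7.47 normalized counts depending on the library, so no change of Egln3 was detectable at this depth.

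Ankrd37, an ankyrin repeat protein gene (ENSMUSG00000050914.15, chromosome 8 from 45996902 to 46005707 of GRCm38), had the largest fall of the members tested. At 0 h the batch 2 libraries held 711, 924 and 936 normalized counts and the batch 1 library 2424. At 0.5 h batch 2 was at 615 and 565 with exosomes, against 576 and 585 untreated, and batch 1 at 1173, against 1326. Within each batch every library was already below its 0 h libraries, though the change of -0.70 ± 0.28 (log2 fold change ± SE, limma, here and below) in untreated cells missed the threshold of an adjusted p below 0.05 (adjusted p = 0.9998, Benjamini-Hochberg over all genes tested). At 2 h batch 2 was at 126 and 236 with exosomes, against 128 and 109.8 untreated, and batch 1 at 637, against 716. The group means of each batch were lowest at this time, with log2 fold changes of -2.21 ± 0.28 with exosomes (adjusted p = 1.5e-05) and -2.51 ± 0.28 without (adjusted p = 6.0e-06), or 4.63-fold and 5.71-fold lower than at 0 h. At 4 h batch 2 held 301 and 268 with exosomes, against 244 and 161 untreated, and batch 1 held 1513, against 1331. The log2 fold changes since 0 h were -1.32 ± 0.28 with exosomes (adjusted p = 0.00657) and -1.73 ± 0.28 untreated (adjusted p = 8.7e-04). Without the 8 libraries with muscle transcripts 1 exosome 4 h library remained, and the change with exosomes was -1.54. At 8 h batch 2 held 333 and 245, against 331 and 330.0, and batch 1 1294, against 2029. All of these stayed below the 0 h libraries of their batch, and the changes at 8 h were -1.39 ± 0.28 with exosomes (adjusted p = 0.00875) and -1.03 ± 0.28 untreated (adjusted p = 0.00821). Without exosome 8 h replicate 3 the change with exosomes was -1.25 ± 0.32 (adjusted p = 0.119). The untreated change was -0.93 (adjusted p = 0.0519) without untreated 8 h replicate 2 alone. Without the 8 libraries with muscle transcripts, which left 1 untreated 8 h library, the untreated change was -1.24. Ankrd37 overlaps Ufsp2 and Lrp2bp on the opposite strand, and the counting is not stated to use strand. In untreated cells Ufsp2, at 512 to 843 normalized counts, was not called at any of the 4 times (-0.02 ± 0.09 at 2 h, adjusted p = 0.93). Lrp2bp, at 3.37 to 39.9 normalized counts, was called at 8 h alone (-0.997 ± 0.317, adjusted p = 0.0206).

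Ddit4, also called REDD1, an inhibitor of the growth-controlling kinase mTORC1 (ENSMUSG00000020108.3, chromosome 10 from 59949669 to 59951834), was called lower as early as 0.5 h. At 0 h the batch 2 libraries held 2585, 3076 and 2907 normalized counts and batch 1 5399. At 0.5 h batch 2 held 1354 and 1611 with exosomes, against 1484 and 1629 untreated, and batch 1 2770.1, against 2565. The level was about 51.3% of that at 0 h with exosomes and 51.8% without, log2 fold changes of -0.96 ± 0.11 (adjusted p = 6.4e-06) and -0.95 ± 0.11 (adjusted p = 2.0e-05). It was the only member called at 0.5 h, where 0.054% (exosome) and 0.0202% (untreated) of all genes tested were called lower. At 2 h batch 2 held 1425 and 1677 with exosomes, against 1352 and 1216 untreated, and batch 1 2654, against 2817. By 8 h batch 2 held 2002 and 1798, against 1993 and 1793, and batch 1 4173, against 4536. All were still below the 0 h libraries of the same batch, and the changes were -0.52 ± 0.11 with exosomes (adjusted p = 0.0168) and -0.49 ± 0.11 untreated (adjusted p = 0.00417). Without exosome 8 h replicate 3 the change with exosomes was -0.47 ± 0.13 (adjusted p = 0.18).

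**Figure D1:**
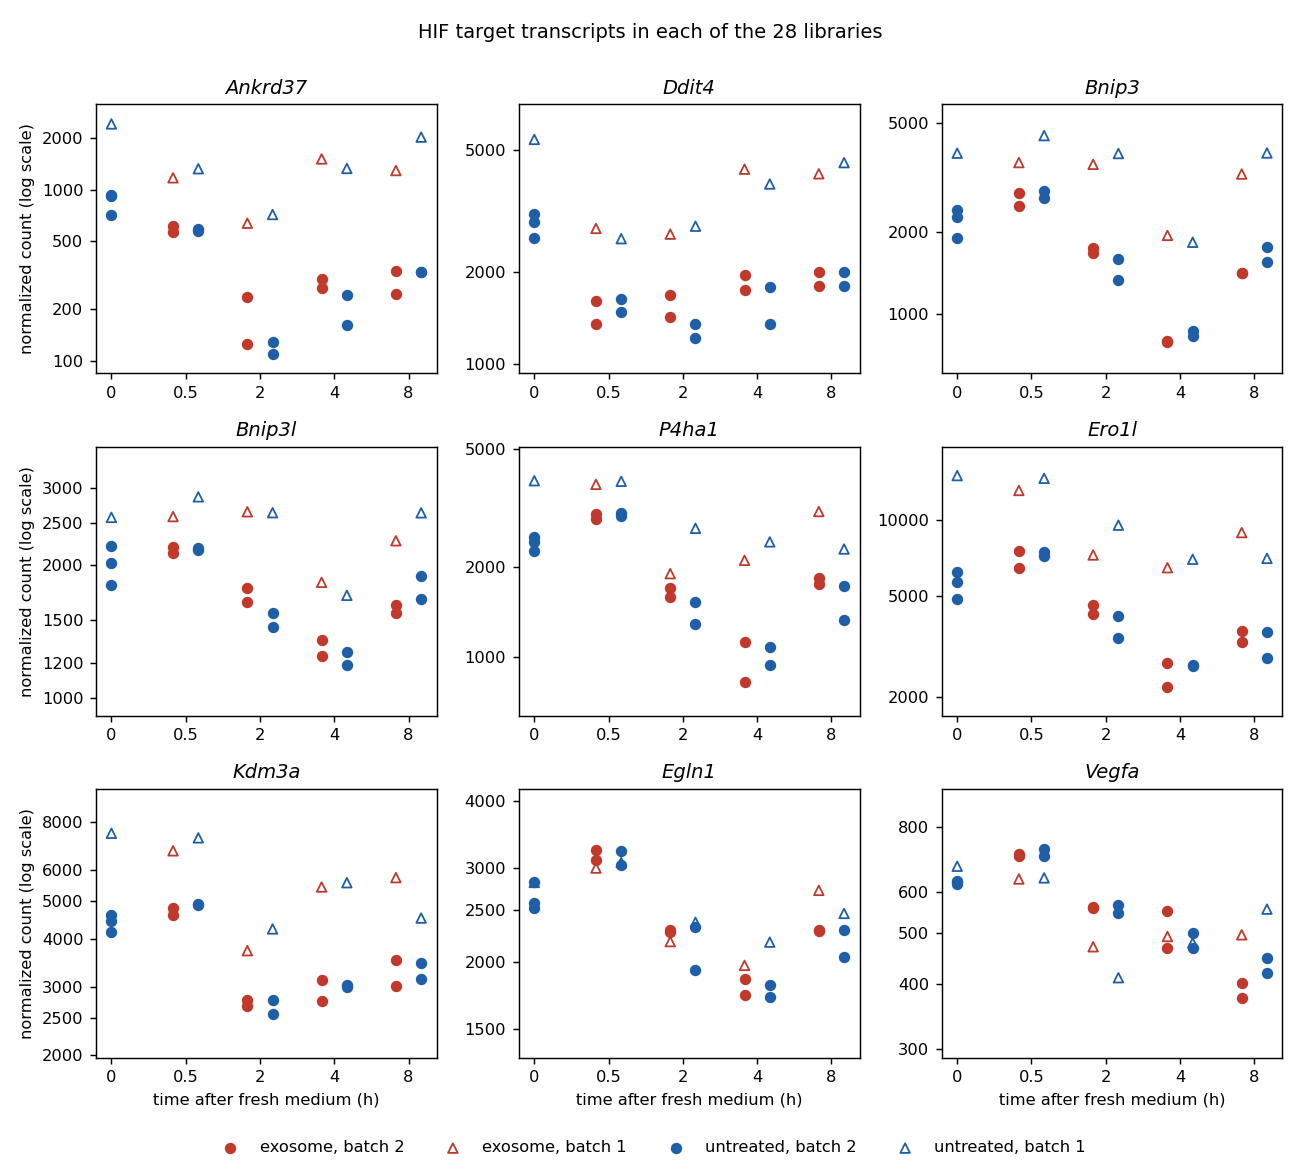
Normalized counts (log scale) of the 9 tested members against time after fresh medium (h), with 1 point per library; red is exosome-treated and blue untreated, filled circles are batch 2 and open triangles batch 1. Ankrd37 is lowest at 2 h and Bnip3, P4ha1 and Ero1l at 4 h in batch 2, and the batch 1 library lies above those of batch 2 in all 9 groups for Ankrd37, Ddit4, Bnip3, Bnip3l, P4ha1, Ero1l and Kdm3a.

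Bnip3 and Bnip3l encode outer mitochondrial membrane proteins that act as receptors for the removal of mitochondria by autophagy. Bnip3 (ENSMUSG00000078566.8, chromosome 7 from 138890836 to 138909519) held 1902, 2263 and 2406 normalized counts at 0 h in batch 2 and 3868 in batch 1. At 2 h it held 1669 and 1745 with exosomes, against 1328 and 1585 untreated, in batch 2, and 3522, against 3857, in batch 1. Each was below the 0 h libraries of its batch, in batch 1 by little, and the changes of -0.30 ± 0.13 with exosomes and -0.41 ± 0.13 untreated did not pass (adjusted p = 0.275 and 0.124). At 4 h it held 789 and 796 with exosomes, against 868 and 832 untreated, in batch 2, and 1937, against 1828, in batch 1. Every 4 h library lay below every library of its batch at the other times, with log2 fold changes since 0 h of -1.32 ± 0.13 with exosomes (adjusted p = 7.8e-07) and -1.28 ± 0.13 untreated (adjusted p = 3.5e-06). At 8 h it held 1406 and 1410.2 with exosomes, against 1755 and 1552 untreated, in batch 2, and 3246, against 3876, in batch 1. The level was then 69.7% of that at 0 h with exosomes and 82.2% untreated. The first change was called, though not without exosome 8 h replicate 3, and the second was not. In untreated cells it rose 2-fold at 8 h over 4 h, a log2 fold change of 1.00 ± 0.14 (adjusted p = 0.00242). The antisense gene Gm45507 and the pseudogene Gm18258 lie within Bnip3 on the other strand, and without strand their reads cannot be told apart from those of Bnip3.

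Bnip3l (ENSMUSG00000022051.15, chromosome 14 from 66985239 to 67008877) followed the same order of times with smaller changes. Its 4 h levels were 1242 to 1829 normalized counts with exosomes and 1184 to 1709 untreated, against 1801 to 2569.8 at 0 h. In both batches the 4 h libraries lay below the 0 h libraries of the batch, and the log2 fold changes were -0.59 ± 0.08 with exosomes (adjusted p = 8.3e-05) and -0.68 ± 0.08 untreated (adjusted p = 2.6e-05). At 8 h it had risen over 4 h by 0.57 ± 0.09 on the log2 scale in untreated cells (adjusted p = 0.00404). Its pseudogene Bnip3l-ps is also in the table, at 188 to 526 normalized counts, and fell at 4 h by 0.57 on the log2 scale in untreated cells (adjusted p = 0.00322), so reads may be split between the copies and the values of both are uncertain.

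P4ha1 encodes a subunit of the collagen prolyl hydroxylase, and Ero1l an endoplasmic reticulum oxidase that helps form disulfide bonds. Ero1l (ENSMUSG00000021831.8, chromosome 14 from 45283087 to 45318771) held 4856, 6224 and 5671 normalized counts at 0 h in batch 2 and 14974 in batch 1. At 0.5 h batch 2 was at 7547 and 6475 with exosomes, against 7453 and 7223 untreated, and batch 1 at 13078, against 14607. Batch 2 lay above its 0 h libraries and batch 1 below its own, and the change of 0.28 ± 0.13 in untreated cells did not pass (adjusted p = 0.9998). At 4 h batch 2 held 2195 and 2726 with exosomes, against 2679 and 2645 untreated, and batch 1 6478, against 6996. By then Ero1l had fallen 2.25-fold with exosomes (log2 -1.17 ± 0.13, adjusted p = 4.1e-06) and 2.08-fold without (log2 -1.05 ± 0.13, adjusted p = 2.4e-05). At 8 h batch 2 held 3653 and 3293, against 2839 and 3601, and batch 1 8918, against 7052, all below the 0 h libraries of the batch.

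P4ha1 (ENSMUSG00000019916.14, chromosome 10 from 59323296 to 59373304) held 2264, 2535 and 2433 normalized counts at 0 h in batch 2 and 3905 in batch 1. At 4 h it held 828 and 1120.2 with exosomes, against 1077 and 942 untreated, in batch 2, and 2112, against 2435, in batch 1. No 4 h library overlapped the 0 h libraries of its batch, and the log2 fold changes were -1.18 ± 0.15 with exosomes (adjusted p = 3.3e-05) and -1.07 ± 0.15 untreated (adjusted p = 2.4e-04). At 8 h the change was -0.39 ± 0.15 with exosomes (adjusted p = 0.219), which did not pass, and -0.70 ± 0.15 untreated (adjusted p = 0.00305), which did. The difference between these was itself not called. Without the libraries with muscle transcripts 1 untreated 8 h library remained, and the untreated change was -0.46.

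Kdm3a encodes a histone H3 lysine demethylase, Egln1 the prolyl hydroxylase that marks HIF for degradation and is itself a HIF target, and Vegfa a growth factor for blood vessels. Kdm3a (ENSMUSG00000053470.13, chromosome 6 from 71588972 to 71632990) was at 2679 to 3724 normalized counts at 2 h with exosomes and 2564 to 4236 untreated, against 4156 to 7471 at 0 h. The ranges overlap across batches, but within each batch every 2 h library lay below the 0 h libraries. Its mean was lowest at 2 h, with log2 fold changes of -0.78 ± 0.09 with exosomes (adjusted p = 3.9e-06) and -0.74 ± 0.09 untreated (adjusted p = 7.9e-06). Egln1 (ENSMUSG00000031987.5, chromosome 8 from 124908587 to 124949324) was at 1737 to 1973 normalized counts at 4 h with exosomes and 1725 to 2179 untreated, against 2528 to 2816 at 0 h, with no overlap between the times. The log2 fold changes were -0.54 ± 0.08 with exosomes (adjusted p = 8.2e-05) and -0.51 ± 0.08 untreated (adjusted p = 3.6e-04). Vegfa (ENSMUSG00000023951.16, chromosome 17 from 46016993 to 46032369) was at 375 to 497 normalized counts at 8 h with exosomes and 420.1 to 556 untreated, against 622 to 672 at 0 h. Both 8 h groups lay below all 0 h libraries, with changes of -0.60 ± 0.11 with exosomes (adjusted p = 0.00466) and -0.43 ± 0.11 untreated (adjusted p = 0.0064). Its mean was lowest at 8 h in batch 2 and at 2 h in batch 1. At 4 h its change missed the threshold, at -0.34 ± 0.11 with exosomes (adjusted p = 0.08) and -0.40 ± 0.11 untreated (adjusted p = 0.0819).

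**Figure D2:**
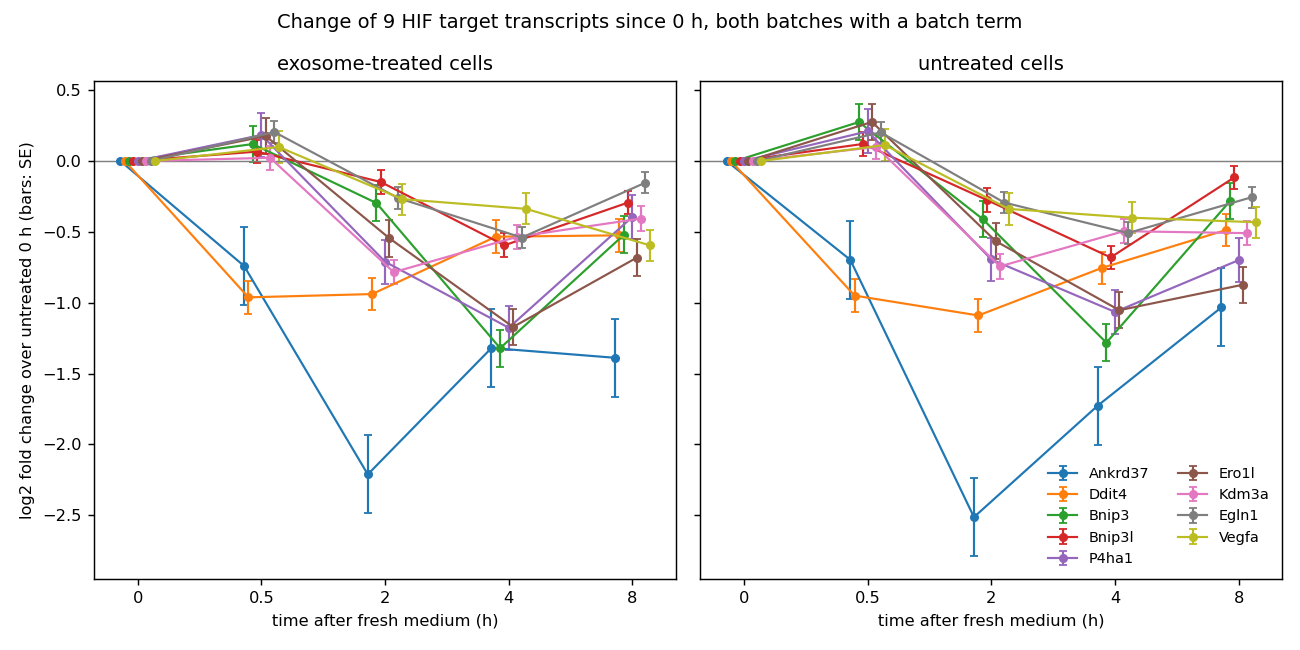
Log2 fold change over untreated 0 h (bars, SE) of the 9 tested members against time (h), in exosome-treated cells on the left and untreated cells on the right. Ankrd37 has its lowest point at 2 h in both panels, Bnip3, P4ha1 and Ero1l at 4 h, and both panels share the 0 h libraries.

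Most members were called lower from 2 h on, against few of all genes except in untreated cells at 8 h. The members were chosen with earlier results of these data known, so the shares below describe them and are no support beyond the levels themselves. In exosome-treated cells 5 of 9 were lower than at 0 h at 2 h, where 1.11% of the 14828 genes tested were called lower, 8 of 9 at 4 h (2.12% of all genes) and 6 of 9 at 8 h (1.16%). In untreated cells the counts were 6 of 9 at 2 h (1% of all genes), 8 of 9 at 4 h (0.971%) and 7 of 9 at 8 h (15.8%). At 2 h Bnip3, Bnip3l and Vegfa were not called in either treatment, nor Egln1 with exosomes (-0.26 ± 0.08, adjusted p = 0.0727, against -0.29 ± 0.08, adjusted p = 0.0427, untreated). At 4 h Vegfa alone was not called in either. At 8 h Bnip3l, P4ha1 and Egln1 were not called with exosomes, against Bnip3 and Bnip3l untreated. Median log2 fold changes of the 9 in untreated cells were 0.12 at 0.5 h, -0.57 at 2 h, -0.75 at 4 h and -0.49 at 8 h, and those with exosomes 0.10, -0.55, -0.59 and -0.52 at the same times, where medians of all genes lay between -0.01 and 0.01. The untreated 8 h group includes 2 libraries with muscle transcripts. Without the 8 libraries of this kind 1 untreated 8 h library remains, so calls with and without them cannot be compared there. The median log2 fold change of the 9 was then -0.46, against -0.49 with them. That of Ero1l was -0.66 without them and -0.87 ± 0.13 with them. With exosomes at 4 h 1 library remains too, where Ddit4 was at -0.68. Without these 8 libraries P4ha1, at -0.53 ± 0.13 (adjusted p = 0.0501), and Ero1l, at -0.37 ± 0.10 (adjusted p = 0.095), missed the threshold with exosomes at 2 h. So did Egln1 untreated at 2 h, at -0.23 ± 0.07 (adjusted p = 0.105), or -0.29 ± 0.08 (adjusted p = 0.0555) without the libraries with few genes at 0. Bnip3l passed with exosomes at 8 h without the muscle libraries, at -0.29 ± 0.07 (adjusted p = 0.0481). The part of the muscle transcripts in these counts was not tested.

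Several counts depended on single libraries. In exosome-treated cells at 8 h, 0 of 9 were called without replicate 3, the library with few genes at 0, 2 without replicate 2, and 3 without untreated 0 h replicate 4. Of all genes 50 were then called without replicate 3 and 45 without replicate 2, against 242 with all libraries. The change of Ero1l was -0.61 ± 0.15 without exosome 8 h replicate 3 (adjusted p = 0.0749), against -0.68 ± 0.13 with it. At 2 h, 3 members were called in exosome-treated cells without exosome 2 h replicate 2 and 3 in untreated cells without untreated 2 h replicate 2, both of them libraries with muscle transcripts. Without the batch term 0, 0, 1 and 1 members were called at the 4 times in each treatment, Egln1 at 4 h and Vegfa at 8 h, since the gap between batches then counts as spread within groups.

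Step by step in untreated cells, most members were lower at 2 h than at 0.5 h. At 2 h over 0.5 h, 8 of 9 members were lower (1.46% of all genes), from -1.82 ± 0.29 for Ankrd37 to -0.40 ± 0.09 for Bnip3l, and Ddit4, which was already low, was at -0.14 ± 0.12 (adjusted p = 0.707). This count was 5 without untreated 0.5 h replicate 3 and 5 without untreated 2 h replicate 2. At 4 h over 2 h, 2 members were lower (0.364% of all genes), Bnip3 by -0.87 ± 0.14 (adjusted p = 0.0018) and Bnip3l by -0.40 ± 0.09 (adjusted p = 0.0335). The second call rested on single libraries, and 1 member was called when untreated 2 h replicate 1 or 3, or any of the 3 untreated 4 h libraries, was left out. At 8 h over 4 h the same 2 genes were higher (2.85% of all genes), and no other member passed. Without the libraries with muscle transcripts Bnip3l was not called at 2 h over 0.5 h, at -0.32 ± 0.09 (adjusted p = 0.0895), and Ero1l was called at 4 h over 2 h, at -0.57 ± 0.10 (adjusted p = 0.0199). At 8 h over 4 h, with 1 untreated 8 h library left, Bnip3l then changed by 0.45. Without the libraries with few genes at 0, Vegfa was not called at 2 h over 0.5 h, at -0.45 ± 0.12 (adjusted p = 0.0633), nor Bnip3l at 4 h over 2 h, at -0.43 ± 0.10 (adjusted p = 0.0847).

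With all libraries weighted equally, exosomes did not measurably change the level of any of the 9 HIF targets tested. Some passed at 8 h with libraries weighted by estimated quality, as given below. At matched times 0 of 9 members were called at 0.5 h, 2 h, 4 h and 8 h, where 0.243%, 0.189%, 0.155% and 0.452% of all genes were called (limma), and 0 had an unadjusted p under 0.05. edgeR and DESeq2 on the recovered reads called 0 as well. Each comparison also equals the difference between the change since 0 h with exosomes and without. For the mean of the 4 times, 0 of 9 were called (0.459% of all genes) and 0 had an unadjusted p under 0.05. The mean effect was 0.08 ± 0.15 for Ankrd37, with a 95% interval of -0.23 to 0.38. It was 0.08 ± 0.06 (-0.05 to 0.21) for Ddit4, -0.08 ± 0.07 (-0.22 to 0.06) for Bnip3 and -0.00 ± 0.07 (-0.14 to 0.14) for Ero1l. For the other 5 members it lay between -0.01 and 0.04, and the narrowest interval was that of Egln1, -0.06 to 0.11. The intervals are what these libraries allow, and they do not show that the levels were equal.

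At single times the effects were less precise. At 2 h Ankrd37 held 126, 637 and 236 normalized counts with exosomes, against 716, 128 and 109.8 untreated, overlapping groups with a difference of 0.30 ± 0.29 (-0.31 to 0.91). At 4 h the difference was 0.41 ± 0.29 (-0.20 to 1.01) and at 8 h -0.36 ± 0.29 (-0.96 to 0.25). P4ha1 at 8 h held 3078, 1842 and 1763 with exosomes, against 2305, 1328 and 1728 untreated. In each batch the exosome libraries lay above the untreated ones, and the difference of 0.31 ± 0.16 was not called (adjusted p = 0.234). The exosome libraries also lay above the untreated ones in each batch for Ankrd37 at 4 h and Bnip3l at 2 h, and below them in each batch for Bnip3, Bnip3l and Vegfa at 8 h and Kdm3a at 0.5 h. Bnip3l at 8 h held 2274, 1554 and 1627 with exosomes, against 2632, 1889.8 and 1672 untreated, a difference of -0.18 ± 0.09 (adjusted p = 0.202). None of these differences was called. A test of unequal exosome effects over the 4 times (limma's F statistic) called 0 of 9 members and 0 of all genes, with adjusted p of 0.439 to 0.883 for the members. With libraries weighted by their estimated quality, 5 members passed at 8 h, P4ha1 (0.41, adjusted p = 0.00751) and Ero1l (0.26, adjusted p = 0.036) higher and Bnip3 (-0.30, adjusted p = 0.0232), Bnip3l (-0.23, adjusted p = 0.00691) and Vegfa (-0.18, adjusted p = 0.0495) lower with exosomes, where 37.5% of all genes passed. The F test then called Bnip3l alone, where 19.4% of all genes passed.

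**Figure D3:**
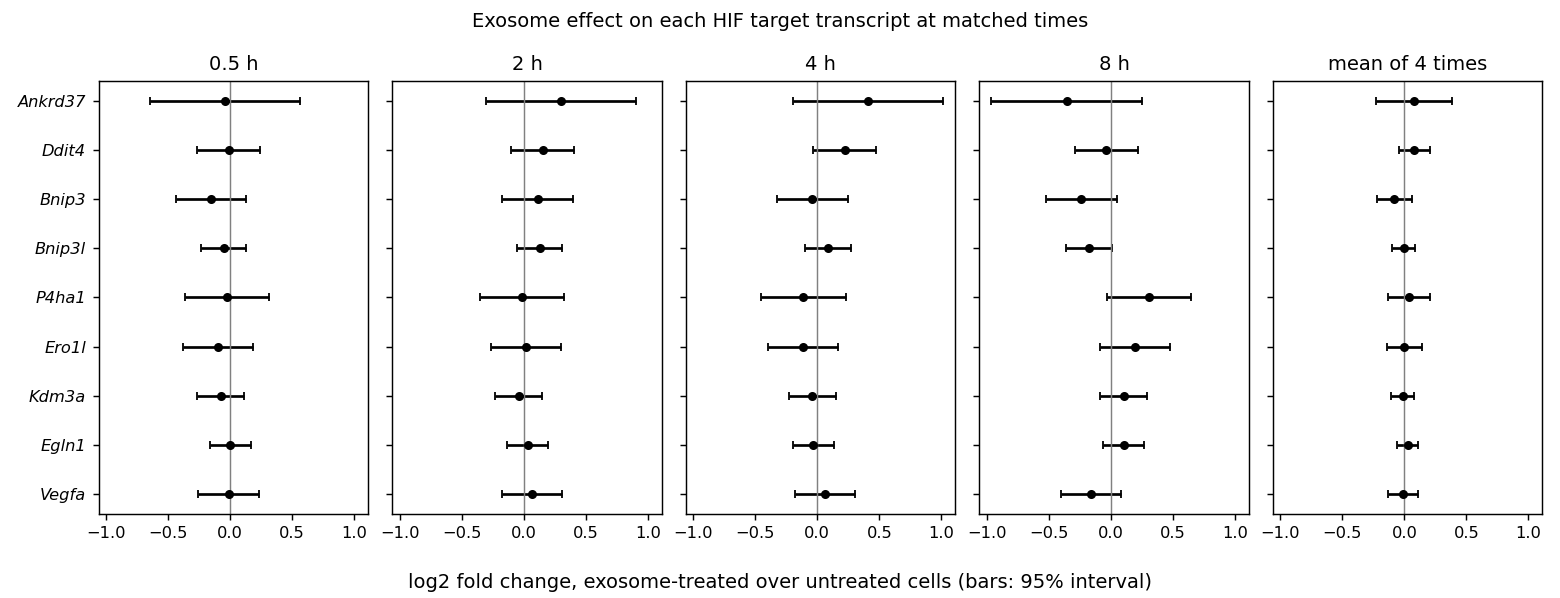
Log2 fold change of exosome-treated over untreated cells (bars, 95% interval) for each tested member at 0.5, 2, 4 and 8 h and as the mean of the 4 times. The intervals shown all include 0, and Ankrd37 has the widest.

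Transcripts typical of melanocytes were higher in the exosome-treated libraries. The 10 melanocyte and melanoma markers summed to 64.8 to 179 normalized counts in exosome-treated libraries, against 7.45 to 24.1 in untreated ones. In the mean over the 4 times 4 of the 5 tested were called higher, where 0.459% of all genes were called. The log2 fold changes were 5.08 for Tyrp1, 2.98 for Trpm1, 2.92 for Mitf and 2.76 for Dct. Tyrp1 was at 0 in 16 of the 28 libraries. Genes this low in untreated cells reach the minimum for testing, 10 normalized counts in at least 3 libraries, through the exosome-treated libraries. The calls are therefore no support beyond the levels themselves. How much of each HIF target came from the vesicles was not tested.

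Batch 1 held more HIF target RNA than batch 2 from the start. At 0 h the batch 1 library was 2.83-fold above the batch 2 mean for Ankrd37, 2.68-fold for Ero1l, 1.89-fold for Ddit4, 1.77-fold for Bnip3, 1.70-fold for Kdm3a and 1.62-fold for P4ha1. It was 1.28-fold above for Bnip3l and 1.07-fold for Egln1 and for Vegfa. With exosome-treated and untreated cells averaged, the early fall of Ankrd37 and Ddit4 and the 4 h fall of Bnip3 and Ero1l were called in each batch. At 2 h Ankrd37 changed by -2.56 ± 0.18 in batch 2 (adjusted p = 1.0e-07) and -1.84 ± 0.28 in batch 1 (adjusted p = 6.7e-04). At 4 h Bnip3 changed by -1.41 ± 0.08 in batch 2 (adjusted p = 7.1e-09) and -1.04 ± 0.12 in batch 1 (adjusted p = 3.1e-04). Ero1l changed at 4 h by -1.12 ± 0.10 and -1.15 ± 0.16, and Ddit4 at 0.5 h by -0.91 ± 0.10 and -1.02 ± 0.16, in batches 2 and 1. Some changes were not called in batch 1, among them those of Bnip3 (-0.07 ± 0.12) and Bnip3l (0.04 ± 0.11) at 2 h and of Ankrd37 (-0.77 ± 0.28, adjusted p = 0.175) and Ddit4 (-0.40 ± 0.16, adjusted p = 0.202) at 4 h. At 8 h Ankrd37, Bnip3, Bnip3l, Egln1 and Ddit4 were not called in batch 1. Batch 1 has 1 library per group, and its lone library is taken to vary like those of batch 2.

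The mean change since 0 h differed between batches for 0 of 9 members (2.47% of all genes), with 0 at an unadjusted p under 0.05. Taken at each time apart, a comparison added after the values were seen, Vegfa at 2 h was the only member called, at -0.17 ± 0.06 in batch 2 and -0.61 ± 0.10 in batch 1 (difference 0.44 ± 0.11, adjusted p = 0.0218). At 0.5, 2, 4 and 8 h this comparison called 0.0472%, 11.2%, 1.48% and 9.37% of all genes. Ankrd37 at 4 h changed by -1.84 ± 0.18 in batch 2 and -0.77 ± 0.28 in batch 1, a difference of -1.07 ± 0.33 that was not called (adjusted p = 0.118). In batch 2 alone 8, 9 and 8 members were lower in untreated cells at 2, 4 and 8 h, where 3.34%, 4.67% and 26.6% of all genes were called in either direction. The exosome effect differed between batches for 0 of 9 members at each time, where 0.0202%, 0.00674%, 0.0135% and 0.0944% of all genes were called.

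**Figure D4:**
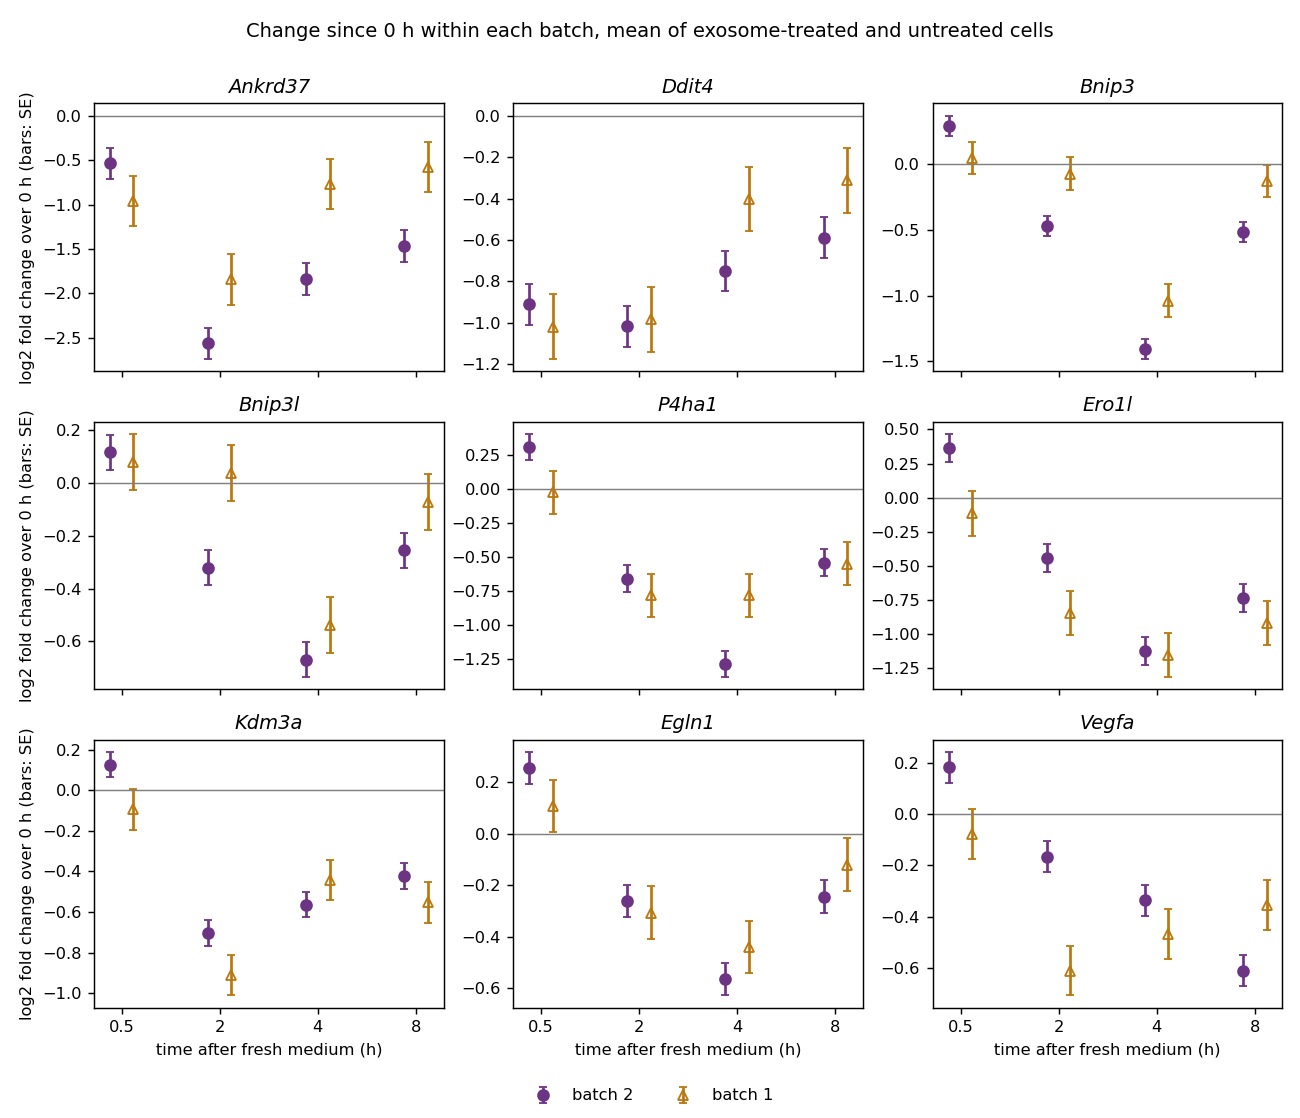
Log2 fold change over 0 h (bars, SE) within batch 2 (filled circles) and batch 1 (open triangles) for each tested member at 0.5, 2, 4 and 8 h, exosome-treated and untreated cells averaged. At 4 h all 9 members are below 0 in both batches, and Ankrd37 is further below in batch 2.

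Of the genes that make and remove HIF, leaving out the members Egln1 and Egln3, 0 were called in untreated cells up to 4 h. At 8 h 6 were called, where 31.7% of all genes were called. Of the 5 HIF subunit genes, all tested, 0 were called in untreated cells at 0.5, 2 and 4 h. Of all 14828 genes tested 28, 272 and 177 were called at these times. At 8 h 3 of the 5 were lower, where 15.8% of all genes were called lower. Hif1a, the main alpha subunit, held 2282 ± 176 normalized counts at 2 h and 2284 ± 81.6 at 4 h in untreated cells (SD, n = 3), against 2292 ± 80.7 at 0 h (n = 4), with changes of 0.01 ± 0.07 and 0.01 ± 0.07 (adjusted p = 0.981 and 0.981). At 8 h Epas1, which encodes HIF-2 alpha, was at -0.49 ± 0.13 in untreated cells (adjusted p = 0.00865), Hif3a at -0.85 ± 0.15 (adjusted p = 9.9e-04) and Arnt at -0.29 ± 0.10 (adjusted p = 0.0305). With exosomes 1 of the 5 was called over the 4 times, Hif3a at 4 h (-0.53 ± 0.15, adjusted p = 0.0456). Of all genes 2.12% were called lower there. Arnt2, a partner related to Arnt, was at 0.44 ± 0.15 at 2 h in untreated cells (adjusted p = 0.144).

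Of 9 other genes that degrade or sense HIF, all tested, 0 were called in untreated cells up to 4 h. At 8 h 3 were higher, the prolyl hydroxylase gene Egln2 (0.33 ± 0.09, adjusted p = 0.00975) and the ubiquitin ligase components Elob (0.80 ± 0.17, adjusted p = 0.0027) and Rbx1 (0.42 ± 0.11, adjusted p = 0.00845). In exosome-treated cells 0 of the 9 were called over 0 h at the 4 times. Vhl, the ligase's recognition subunit, was at -0.21 ± 0.07 at 2 h and -0.25 ± 0.07 at 4 h in untreated cells (adjusted p = 0.147 and 0.0993). Changes at 4 h in untreated cells for Cul2, Eloc, Hif1an, Siah1a and Siah2 lay between -0.00 ± 0.06 for Hif1an and 0.11 ± 0.10 for Siah2, none of them called. The untreated 8 h calls sit where 31.7% of all genes were called in either direction.

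A share of other known HIF targets fell too. Of 33 such genes 25 were tested, and with exosomes 0, 7, 10 and 3 were lower than at 0 h at 0.5, 2, 4 and 8 h, with 0 higher, where 0.054%, 1.11%, 2.12% and 1.16% of all genes were called lower. In untreated cells 0 were called at 0.5 h, 5 were lower at 2 h, 6 at 4 h and 8 at 8 h, with 0 higher, where 15.8% of all genes were called lower at 8 h. Their median log2 fold change was -0.21 at 2 h and -0.28 at 4 h, against -0.57 and -0.75 for the members, and 1% and 0.971% of all genes were called lower at these times. Narf, a nuclear prelamin A binding protein gene, was at 760.4 ± 132 normalized counts at 2 h with exosomes and 722 ± 159 untreated (SD, n = 3 each), against 1525 ± 136 at 0 h (n = 4). The log2 fold changes were -1.05 ± 0.09 (adjusted p = 6.3e-08) with exosomes and -1.14 ± 0.09 (adjusted p = 3.9e-08) untreated, and like Ankrd37 it was lowest at 2 h. Hilpda, a lipid droplet protein gene, changed at 2 h by -0.96 ± 0.13 in untreated cells (adjusted p = 6.1e-05) and Kdm4b, a histone demethylase gene, by -0.61 ± 0.10 (adjusted p = 0.00105). Nos2, which makes nitric oxide, was lower at 8 h (-1.76 ± 0.43, adjusted p = 0.00492), at 4.13 ± 4.21 normalized counts, against 14.2 ± 9.61 at 0 h, where the lowest values come from few reads.

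Of 23 genes of glucose uptake and glycolysis 22 were tested. In exosome-treated cells 1, 4, 8 and 5 were lower than at 0 h at 0.5, 2, 4 and 8 h, against 1, 5, 6 and 10 in untreated cells, with 0 higher in either. Of all genes 0.054%, 1.11%, 2.12% and 1.16% were called lower at these times with exosomes, against 0.0202%, 1%, 0.971% and 15.8% untreated. Slc2a1, the glucose transporter GLUT1, was at 1025 ± 145 normalized counts at 2 h with exosomes and 1081 ± 291 untreated (SD, n = 3 each), against 2286 ± 533 at 0 h (n = 4). The log2 fold changes were -1.19 ± 0.13 (adjusted p = 2.7e-06) with exosomes and -1.14 ± 0.13 (adjusted p = 6.0e-06) untreated. Hk2, which encodes a hexokinase, changed at 2 h by -1.09 ± 0.25 in untreated cells (adjusted p = 0.0228) and the phosphofructokinase gene Pfkl at 4 h by -0.88 ± 0.09 (adjusted p = 3.5e-06). Gapdh, a glycolytic dehydrogenase with many near-identical pseudogenes that make its counts uncertain, was at -0.79 ± 0.15 at 0.5 h (adjusted p = 0.0108). In the mean exosome effect 0 genes of these 4 lists were called.

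**Figure D5:**
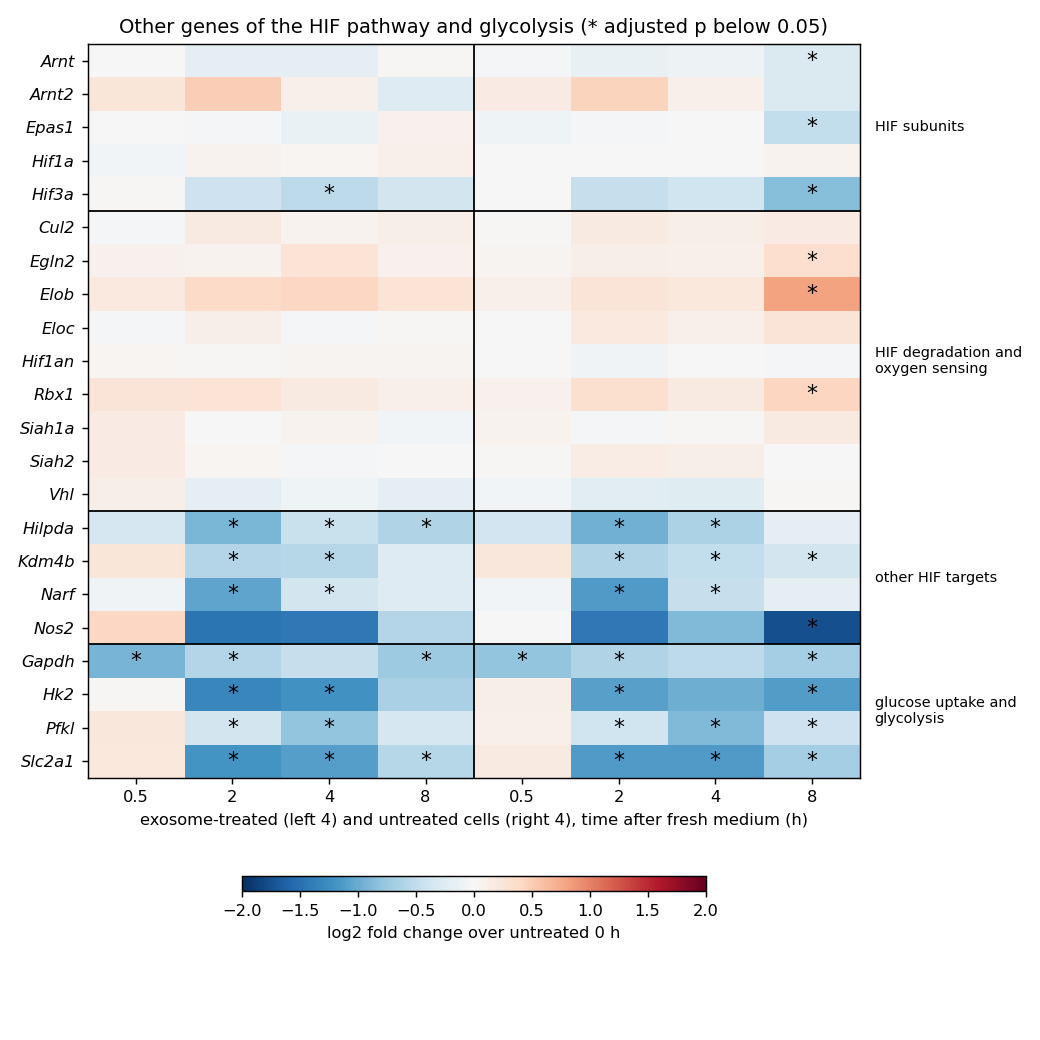
Log2 fold change over untreated 0 h, as colour, of HIF subunit genes, HIF degradation genes and the called genes with the largest changes among other HIF targets and glycolysis, in exosome-treated cells (left 4 columns) and untreated cells (right 4) at 0.5, 2, 4 and 8 h. Stars mark an adjusted p below 0.05; Hif1a has none, and Slc2a1 has one at 2, 4 and 8 h in both treatments.

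Genes of neighbouring programmes gave 0 to 2 calls per list, treatment and time up to 4 h. Of 10 tested genes of the ATF4 amino acid response 1 was lower at 2 h in untreated cells, the growth inhibitor Sesn2 (-0.27 ± 0.07, adjusted p = 0.0498), and 2 were higher at 8 h, Chac1 (0.34 ± 0.13, adjusted p = 0.0485) and Phgdh (0.42 ± 0.10, adjusted p = 0.00547), where 31.7% of all genes were called in either direction. Of 9 tested genes of the glucocorticoid and FOXO response, 1 was lower at 2 h, Ccng2, a cyclin gene, by -1.27 ± 0.11 (adjusted p = 2.8e-07), also called at 4 h (-0.65 ± 0.11) and 8 h (-0.49 ± 0.11). At 8 h Per1 was lower too (-0.40 ± 0.09), and Fkbp5 (0.18 ± 0.07) and Txnip (0.20 ± 0.07) were higher. With exosomes Ccng2 was lower at 2 h (-1.32, adjusted p = 6.3e-08), 4 h (-0.56, adjusted p = 0.00458) and 8 h (-0.48, adjusted p = 0.0275). Klf9 was higher with exosomes at 0.5 h (0.46, adjusted p = 0.0468), Txnip at 2 h (0.25, adjusted p = 0.047) and Nupr1, of the ATF4 list, at 0.5 h (0.60, adjusted p = 0.0355). Of 8 endoplasmic reticulum folding genes 0 were called in untreated cells up to 4 h and 3 were higher at 8 h, Hspa5 (0.35 ± 0.10), Sdf2l1 (0.46 ± 0.09) and Xbp1 (0.22 ± 0.07), against the same 31.7% of all genes. With exosomes 1 of the 8 was called over the 4 times, Hspa5 at 4 h (0.37, adjusted p = 0.0282). Ero1l, which works in the same compartment, was lower in untreated cells at 8 h (-0.87 ± 0.13).

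The members did not all share one time course. Over the 9 batch-adjusted group means on the log2 scale, which share the same libraries and 0 h start, Pearson's r between pairs of the 9 members ran from -0.12 to 0.99, with a median of 0.73 over 36 pairs. Against the mean of the 9 standardized profiles, of which each is a part, r was 0.96 for P4ha1, 0.94 for Egln1 and 0.93 for Ero1l, and 0.20 for Ddit4. The 8 other genes most like that mean profile were Tmem119 (r = 0.99), Slc30a9 (0.97), Impa2 (0.97), Slamf7 (0.97), Kif26a (0.96), Rcor2 (0.96), Slc2a1 (0.96) and Pfkp (0.96), over the same 9 groups. Tmem119 was at -0.94 ± 0.16 at 2 h and -1.25 ± 0.16 at 4 h in untreated cells (adjusted p = 0.00104 and 3.2e-05).

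Markers of other cell types differed in level. The 10 skeletal muscle markers summed to 536 to 765 normalized counts in the 0 h libraries and to at most 3902, in a 4 h exosome library, and Ckm alone was at 398 to 1042 in the 28 libraries. Of these 10, 2 were called over 0 h, Acta1 (5.03, adjusted p = 0.0268) and Ckm (0.68, adjusted p = 0.0154), both in untreated cells at 8 h. The 10 macrophage and dendritic cell markers summed to 5573 to 10179 normalized counts, of which Itgax held 4940.3 to 9621, while Adgre1 was at 0 in 25 libraries and Csf1r reached at most 7.47. Cd68, at 266 to 544, and Cd14, at 140.1 to 244, were present in every library, and Cd14 was higher untreated at 8 h (0.41, adjusted p = 0.0337). The 8 fibroblast and matrix markers summed to 70.2 to 203 normalized counts, and Col1a2 was higher with exosomes at 4 h (0.65, adjusted p = 0.0473). Of 13 T-cell markers Cd8a was higher at 2 h with exosomes (0.66, adjusted p = 0.0236) and at 4 h with exosomes (0.70, adjusted p = 0.0124) and untreated (0.64, adjusted p = 0.0497), and in untreated cells at 8 h Cd3e, Prf1 and Il2rb were lower and 6 were higher, from 0.19 for Thy1 to 0.68 for Gzma, where 31.7% of all genes were called in either direction.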

How the data were processed

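RNA from 28 CTLL2 libraries was sequenced by the authors, with TRIzol extraction and TruSeq RNA V2 libraries per the labels' protocols. Per the submitters' processing notes the authors used featureCounts 1.5.0, STAR 2.4.2, CASAVA 1.8.4, R 3.3.2 and DESeq2 with genome build GRCm38, and strandedness is not given in the sources used here. The deposited values are a signal per gene, counts scaled by the authors with a size factor for each library (0.401 to 1.59). Undoing that scaling returned whole numbers, to within 0.01 read, for 100% of values, so the depth was 6072984 to 24085812 reads and 3 reads were worth 1.88 to 7.47 normalized counts. Intervals and floors cover counting error or the spread between libraries only. Symbols were matched for 30403 of the 30608 gene IDs (GENCODE M21). No column lacked a sample, and no 2 replicates agreed within sampling noise (chi-square per degree of freedom 1.32 to 133 over 30 pairs).

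Genes with at least 10 normalized counts in at least 3 libraries (14828) were fitted with limma 3.58.1 (R 4.3.3) on log2(normalized count + 1), with 9 group means and a batch term, leaving 18 residual degrees of freedom. A fold change on this scale understates that of low genes. The Benjamini-Hochberg adjustment ran over all 14828 genes, and an adjusted p below 0.05 was called. The script was tested on simulated data. Alternatives were edgeR 4.0.16 and DESeq2 1.42.0 on the recovered reads, other pseudocounts and filters, no batch term, array weights, a replicate block, batch 2 alone, leaving out libraries that stood apart, and leaving out each library in turn. Batch differences at each time were added after the values were seen. The recovered reads gave 28, 279, 168 and 4620 calls for untreated cells over 0 h at the 4 times with edgeR, against 28, 272, 177 and 4702 with limma.

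The members and the gene lists were chosen with earlier results of these data known. Besides the members, the text names all tested HIF subunit and degradation genes, up to 4 called genes per other list with the largest change in untreated cells since 0 h, and the 8 genes most like the members' mean profile, leaving out predicted genes and RIKEN clones. Genes named from smaller counts (Cd14, Cd3e, Cd68, Cd8a, Col1a2, Dct, Il2rb, Klf9, Mitf, Nupr1, Prf1, Thy1, Trpm1 and Tyrp1) were chosen after their values were seen.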

Additional observations from a re-analysis of the deposited data

Results flagged for a closer look

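For 5 members the batch 1 library at 0 h stood apart from the other 3 untreated 0 h libraries by a gap test at the 95% level (Dixon). It held 2424 normalized counts of Ankrd37, against 711, 924 and 936 in the others. For Kdm3a it held 7471, against 4156, 4448 and 4589. For P4ha1 it held 3905, against 2264, 2535 and 2433, and for Ero1l 14974.5, against 4856, 6224 and 5671. For Vegfa it held 672, against 622, 630.3 and 628, a gap that is small in size but wide beside the spread of the other 3. Chance flags about 1 in 20 groups, and 9 members were looked at in the same 4 libraries, so these are not independent. The other 8 groups hold 3 libraries and were not tested in this way. Batch 1 has 1 library at 0 h, so at that time the batch and the library cannot be told apart. In the other 8 groups too the batch 1 library lay above those of batch 2 for Ankrd37, Kdm3a, P4ha1 and Ero1l. For Vegfa at 0.5 h it lay below, at 635 with exosomes, against 704 to 709, and 638 untreated, against 703 to 727. The cause of the gaps was not tested.

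The change of Vegfa at 2 h over 0 h, with exosome-treated and untreated cells averaged, differed between batches by 0.44 on the log2 scale (batch 2 minus batch 1, adjusted p = 0.0218, limma). It was -0.17 ± 0.06 in batch 2 and -0.61 ± 0.10 in batch 1, in a comparison added after the values were seen.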

How the results depend on the processing

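No member changed direction under any alternative run for a called change. Counts are of the 9 tested members. Without the batch term, exosome-treated cells over 0 h had 0, 0, 1 and 1 calls at 0.5, 2, 4 and 8 h, and untreated cells 0, 0, 1 and 1, against 1, 5, 8 and 6 and 1, 6, 8 and 7 with it. The untreated steps had 1 (2 h over 0.5 h), 0 (4 h over 2 h) and 0 (8 h over 4 h), against 8, 2 and 2. Without the libraries with muscle transcripts the count was 3 for exosome 2 h over 0 h. Counts that involve exosome 0.5 h, exosome 4 h or untreated 8 h cells are not given for that fit, since 1 library of each remains. Without the libraries with few genes at 0 the counts were 0 for exosome 8 h over 0 h and 1 for untreated 4 h over 2 h. That step also gave 1 with no filter on low values and 1 in batch 2 alone. Array weights gave 8 for exosome 2 h over 0 h, 5 for exosome over untreated at 8 h, 1 for the F test over times, and 4 and 6 for the last 2 untreated steps. The cause was not tested. Leaving out each library in turn, the counts for exosome-treated cells over 0 h ranged over 1 to 1, 3 to 5, 7 to 9 and 0 to 7 at the 4 times, and for untreated cells over 1 to 1, 3 to 7, 8 to 9 and 5 to 8. For exosome over untreated, its mean, the F test and the batch difference they were 0 to 0, and for the untreated steps 5 to 8, 1 to 2 and 2 to 3. A replicate block gave 3 for exosome 8 h over 0 h and otherwise stayed within 1.5 times. The labels do not say whether replicate numbers pair the samples. Deviations from group means correlated over 0.1 in 68 of 108 same-number pairs (lowest -0.65), with a median of 0.26, against 0.04 for other pairs. After batch means were taken out 21 pairs did, with medians of -0.04 and 0.01. Batch largely follows the replicate number, so these values cannot decide whether samples were paired. For all genes, exosome over untreated at 8 h had 953 calls with DESeq2 and 65 with edgeR, against 67. With 1 library per group in batch 1 and 2 or 3 in batch 2, a change in Ankrd37 had the widest intervals, and a change in Egln3 was not detectable.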
